A study of Mus musculus with 9 samples.

Results

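The transcripts of 10 heat shock chaperone genes were examined in 4T1 tumors grown in mice on a low-fat diet (LFD), on a high-fat diet (HFD), and on a high-fat diet with the LIFR inhibitor EC359 (HFD + EC359). The genes were chosen by name, with earlier results of these data known. They are 10 of the 22609 genes listed in the count tables: Hspa1a, Hspa1b, Hspa8, Hsph1, Dnajb1, Hsp90aa1, Hsp90ab1, Hspd1, Hspe1, and Hspb1. All 10 were among the 13366 genes with enough counts to be tested. On HFD, 9 of the 10 rose and Hspb1 fell at an adjusted p under 0.05, where 26% of all tested genes rose and 25.8% fell. Of these calls, that of Hspb1 was lost under 5 alternative settings and that of Hspd1 under 1. With EC359, both inducible HSP70 genes, Dnajb1, Hspe1, and Hspd1 fell from their HFD level, whereas Hspb1 and Hspa8 rose, against 13.9% of all tested genes that fell and 12.7% that rose. Of these calls with EC359, that of Hspd1 was lost under 7 alternative settings and that of Hspa8 under 1.

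Heat shock chaperones bind unfolded proteins and keep them from aggregating until they fold, are refolded, or are degraded. HSP70 proteins take up a substrate with a J-domain partner and release it with the help of an exchange factor such as HSP110, and can pass it on to HSP90, on which many kinases and steroid receptors depend. In the mitochondrial matrix, HSP60 and HSP10 form a closed folding chamber, and small HSPs hold unfolded proteins without using ATP. Many of these genes are targets of HSF1, which binds repeats of nGAAn upstream of them under stress, and tumor cells often hold them at a high level without heat.

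The 4T1 line, 1 mouse mammary carcinoma line used as a model of triple-negative breast cancer (TNBC), was implanted as 500000 cells in a mammary fat pad of BALB/c hosts. All mice had been on their diet for 6 weeks by then and stayed on it. The LFD mice received 10% of their calories as fat and the HFD and HFD + EC359 mice 60%. The HFD + EC359 mice were given EC359 at 5 mg/kg intraperitoneally on 5 days a week, after tumors had formed. For this model the paper names vehicle as the alternative to EC359, without its composition and without saying whether the LFD mice received it. It names hydroxy propyl cellulose as the vehicle for its xenografts of human cells. Each group has 3 libraries of stranded mRNA from total tumor RNA, sequenced as 150-base read pairs. Neither the age of the mice nor the animal behind each library is given in the sources used here, and no group received EC359 on the low-fat diet. The p-values therefore measure the spread between these libraries, which may be in part technical.

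Library totals ran from 5085357 to 6509130 counts in the LFD group, from 7314704 to 7922852 in the HFD group, and from 8043649 to 9751201 in the HFD + EC359 group. One LFD library, replicate 1, stood apart from its group: its mean chi-square per gene against the other LFD libraries was 3.00 and 2.46, against 1.36 to 1.57 for every other pair of replicates. The libraries also differed in base composition. Relative to the average over the 9 libraries, the log2 level of low-GC genes less that of high-GC genes was -0.54 to -0.32 in the LFD libraries, 0.10 to 0.16 in the HFD libraries, and 0.25 to 0.30 in the HFD + EC359 libraries. Of the markers of mammary tumor epithelium, Krt8 and Krt18 were abundant, at means of 483 and 361 CPM, counts scaled to the TMM-normalized library size. Epcam was low, at 4.61 CPM, and Krt19, Krt7, and Cldn7 averaged 0.920, 0.511, and 0.0722 CPM, near or under the 0.308 to 0.590 CPM that 3 counts are worth, with Cldn7 at 0 in the HFD + EC359 libraries.

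In these bulk tumors, fewer cells of a type and less RNA per cell cannot be told apart. The summed level of 7 fibroblast markers was 7617 to 9041 CPM on LFD, 13420 to 14140 CPM on HFD, and 3814 to 3923 CPM with EC359, none of them at 0. This sum is mostly that of Col1a1, Col1a2, and Col3a1, at means of 1613, 781, and 762.6 CPM with EC359. At an adjusted p under 0.05, 5 of the 7 fell and 1, Pdgfra, rose with EC359 from HFD, against 13.9% and 12.7% of all tested genes. Against LFD, 3 were higher and 3 lower with EC359, where 29.2% and 29.1% of all tested genes were. The 5 endothelial markers summed to 154.7 to 166, 303.8 to 326.2, and 266 to 277.5 CPM, mostly of Pecam1 and Cdh5. All 5 rose on HFD, against 26% of all tested genes. With EC359 from HFD 3 of them, Cdh5, Kdr, and Tek, fell, against 13.9%, and Pecam1 and Emcn were not called. The 7 mammary epithelial markers summed to 1115 to 1136, 705.3 to 714.7, and 763.5 to 791.6 CPM, mostly of Krt8 and Krt18. Of the 4 that were tested, 4 fell on HFD and 3 rose with EC359 from HFD, against 25.8% and 12.7% of all tested genes. Cdh1 averaged 28.45 CPM on LFD, 5.902 CPM on HFD, and 19.91 CPM with EC359. Epcam averaged 7.394, 1.367, and 5.058 CPM in the same order. Immediate early genes respond to tissue handling as well as to signals. Of 10 listed, 7 fell on HFD and 5 with EC359 from HFD at an adjusted p under 0.05, against 25.8% and 13.9% of all tested genes. Egr1 and Atf3 had their highest mean with EC359, at 22.14 and 19.7 CPM, and Egr1 was called above LFD there (0.27, adjusted p = 0.0305). The 10 genes, of which Jun and Junb were the most abundant, summed to 1133 to 1263 CPM on LFD, 913.1 to 950.2 CPM on HFD, and 747.4 to 774.9 CPM with EC359. The part of these differences in the chaperone results was not tested.

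The 10 genes lie on 6 chromosomes of the mm9 build, and for several of them the count is uncertain because near-identical sequence lies elsewhere. Hspa1a (chr17:35106304-35109101, minus strand) and Hspa1b (chr17:35093374-35096183, minus strand) are single-exon genes 10120 bases apart. Of all stretches of 150 bases, the length of 1 read, 40.5% of Hspa1a and 40.4% of Hspa1b occur unchanged in the other gene. Read pairs with a mapping quality under 2, such as those with equally good places, were left out by the authors' counting, so that the levels of both genes may be underestimated. Stretches of at least 150 bases with at least 95% identity to loci elsewhere in the genome covered 100% of the exon bases of Hspa8 (chr9:40609356-40613282, plus strand, 9 exons), 97.0% of Hsp90aa1 (chr12:111929246-111934605, minus strand, 11 exons), 95.8% of Hspd1 (chr1:55134678-55144776, minus strand, 12 exons), 90.2% of Hspb1 (chr5:136363789-136365433, plus strand, 3 exons), and 69.8% of Hspe1 (chr1:55144992-55148161, plus strand, 4 exons). For Hsp90ab1 (chr17:45704727-45710210, minus strand, 11 exons) they covered 6.86%. No such stretch was found for Hsph1 (chr5:150419420-150438890, minus strand, 18 exons) or Dnajb1 (chr8:86132074-86135802, plus strand, 3 exons), which makes these the least ambiguous counts among the 10.

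The promoters of 6 of the genes are shown. Pairs of them changed in the same direction on HFD and with EC359. Others of them differ in the heat shock element that HSF1 is known to bind. The part of the promoters in the changes was not tested. From RefSeq's table of promoters, for build GRCm38.p6, an entry was used only where its start site was that of the gene in the count tables. Such an entry was found for 7 of the 10 genes, and each was placed in mm9 by an exact match. Each line gives the 150 bases before the start site, 5′ to 3′ on the strand of the gene, with every GAANNTTC or TTCNNGAA in capitals. Each of these motifs reads the same on both strands. They lie at chr17:35109102-35109251, chr17:35096184-35096333, chr1:55144777-55144926, chr1:55144842-55144991, chr5:136363639-136363788, and chr8:86131924-86132073, in this order.
Hspa1a: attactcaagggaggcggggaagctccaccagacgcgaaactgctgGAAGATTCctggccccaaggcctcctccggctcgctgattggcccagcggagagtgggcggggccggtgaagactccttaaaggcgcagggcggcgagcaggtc
Hspa1b: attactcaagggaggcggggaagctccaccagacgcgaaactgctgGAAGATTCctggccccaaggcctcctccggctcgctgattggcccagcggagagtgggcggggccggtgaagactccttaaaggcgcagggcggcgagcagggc
Hspd1: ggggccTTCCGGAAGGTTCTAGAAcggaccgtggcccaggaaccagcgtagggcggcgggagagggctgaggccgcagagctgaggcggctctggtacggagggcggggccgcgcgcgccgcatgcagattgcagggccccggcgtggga
Hspe1: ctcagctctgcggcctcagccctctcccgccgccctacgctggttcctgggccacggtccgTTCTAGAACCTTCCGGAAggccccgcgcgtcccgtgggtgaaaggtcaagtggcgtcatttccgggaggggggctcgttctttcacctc
Hspb1: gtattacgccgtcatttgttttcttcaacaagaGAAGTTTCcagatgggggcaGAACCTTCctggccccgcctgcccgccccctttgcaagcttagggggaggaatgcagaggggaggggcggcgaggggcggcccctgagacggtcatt
Dnajb1: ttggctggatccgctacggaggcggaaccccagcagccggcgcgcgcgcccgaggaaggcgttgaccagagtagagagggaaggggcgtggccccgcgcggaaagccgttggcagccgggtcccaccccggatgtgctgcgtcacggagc

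Upstream of Hspa1a and Hspa1b the 250 bases of the table were identical at 247 positions, 98.8%, and the single match began 104 bases before either start site. Hspd1 and Hspe1 are transcribed away from each other from first exons 215 bases apart, so their printed promoters overlap on opposite strands, and the capital run of 3 overlapping matches is the same stretch in both. It begins 144 bases upstream of Hspd1 and 89 bases upstream of Hspe1. Hspb1 held 2 matches, which begin 117 and 97 bases upstream, and Hsph1 1 match, which begins 54 bases upstream. No match was found in the 250 bases of Dnajb1. Over the 32851 promoters of the table, 12.8% held either motif in 250 bases, and 0.466% held 3 units in a row (either motif followed by NN and a further unit).

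The 10 chaperones differed widely in level. Per kilobase of exon and library size (RPKM), Hsp90ab1 was the most abundant in every group, at 577 ± 10.3 on LFD, 649 ± 3.48 on HFD, and 627 ± 6.18 with EC359 (mean ± SD, n = 3, as for every mean here). Hspa8, Hspd1, Hsp90aa1, and Hspe1 followed in this order in every group, with overlapping libraries only between Hsp90aa1 and Hspe1 on LFD. On LFD, Hspa1b came next at 23.7 ± 2.19 RPKM, followed by Hsph1 at 19.1 ± 0.750 and Dnajb1 at 18.6 ± 1.46, which overlapped, then Hspb1 at 7.84 ± 1.65 and Hspa1a at 3.71 ± 0.147. With EC359, Hspa1b dropped in this order to 17.6 ± 0.876 RPKM, below Hsph1 and level with Dnajb1, whose libraries it overlapped. On HFD, Hspa1a at 6.66 ± 0.371 RPKM lay above Hspb1 at 5.32 ± 0.712, whereas in the other groups Hspa1a was the lowest of the 10. Together the 10 genes took 0.251% to 0.274% of all counts on LFD, 0.351% to 0.359% on HFD, and 0.352% to 0.358% with EC359. The abundant pair Hsp90ab1 and Hspa8 made up 75.15% ± 0.523 of that on LFD, 73.0% ± 0.0859 on HFD, and 76.9% ± 0.613 with EC359, and the sum mostly reflects them.

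**Figure D1:**
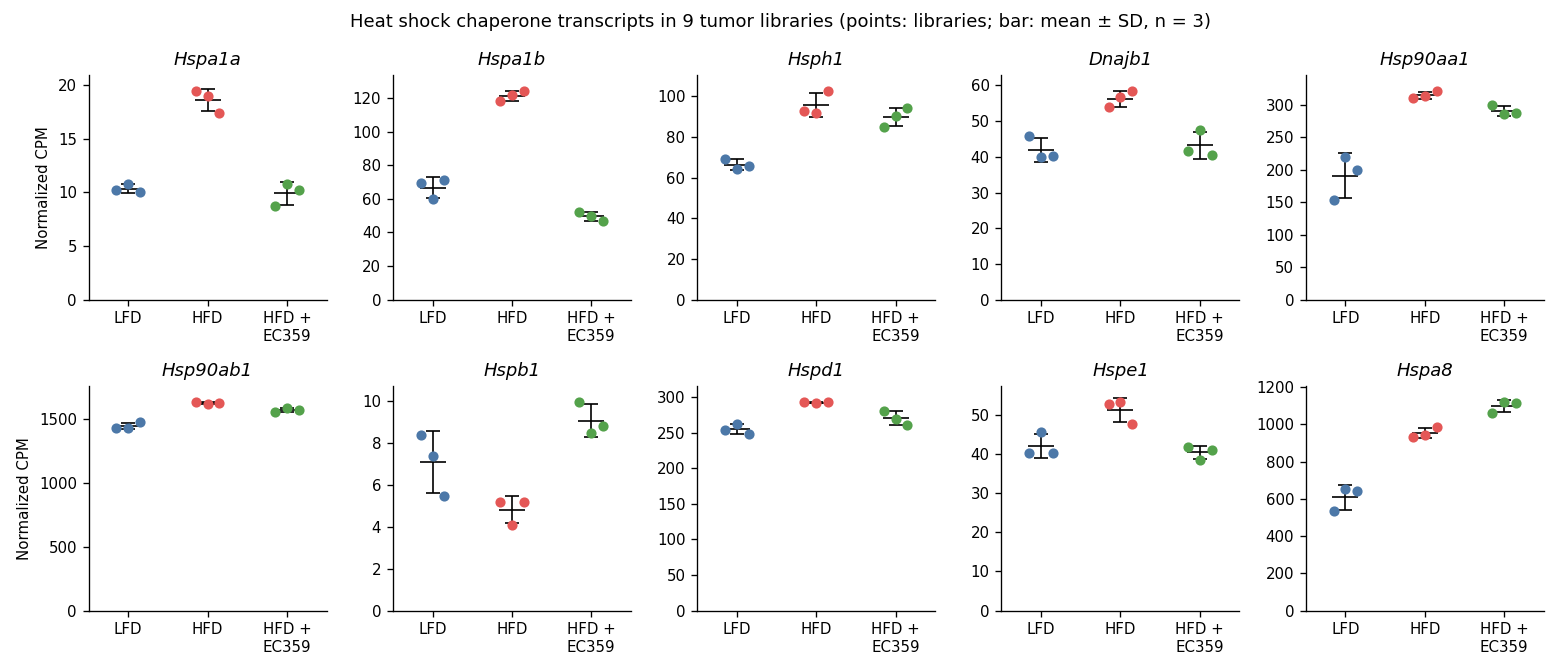
Normalized CPM of the 10 heat shock chaperone genes by group, with a linear axis from 0 in each panel. Points are the 3 libraries of a group and bars the mean ± SD. Hspa1b stood at 118 to 124 CPM in the HFD libraries and at 47.0 to 51.9 CPM with EC359, whereas Hspa8 was highest with EC359.

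Genes were called where edgeR's quasi-likelihood p, adjusted by Benjamini-Hochberg over all 13366 tested genes, was under 0.05. HFD against LFD asks how tumors differ between mice on the diets. All 10 chaperones were called, 9 higher and 1 lower on HFD, where 51.8% of all tested genes were called, 26% higher and 25.8% lower. Their median log2 fold change was 0.48, against 0.01 over all tested genes. Because the 10 genes were chosen with earlier results known, such shares and medians, here and below, are descriptions and not a test of the group. The 3 libraries of the groups did not overlap for any of the 10, against 57.1% of all tested genes. None passed the stricter threshold of the study's methods, a fold change over 2 with an adjusted p under 0.01, which 5.71% of genes passed.

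HFD + EC359 against HFD asks how tumors of mice on the same diet differ with and without the inhibitor. Of the 10 chaperones, 5 were lower and 2 higher with EC359, against 13.9% and 12.7% of all tested genes, and 26.6% in either direction. Their median log2 fold change was -0.11, against 0.01 over all tested genes. The HFD + EC359 libraries lay below all HFD libraries for 7 of the 10 and above them for Hspb1 and Hspa8, and those of Hsph1 overlapped, whereas 41.3% of all genes had groups without overlap. Hspa1b alone passed the stricter threshold, which 3.43% of all tested genes passed, or 1.38% counting only those that were lower.

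HFD + EC359 against LFD differs in diet and in treatment, which cannot be told apart in it. Here Hsp90aa1, Hsp90ab1, Hsph1, and Hspa8 were higher, 4 of the 10, and Hspa1b was lower. Over all tested genes 58.3% were called, 29.2% higher and 29.1% lower, so that 5 of 10 is near this background. None passed the stricter threshold, which 5.09% of genes passed. The groups did not overlap for 6 of the 10, against 62.9% of all genes. The comparisons share libraries, since each group serves in a pair of them, so they are given side by side and not as independent observations.

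**Figure D2:**
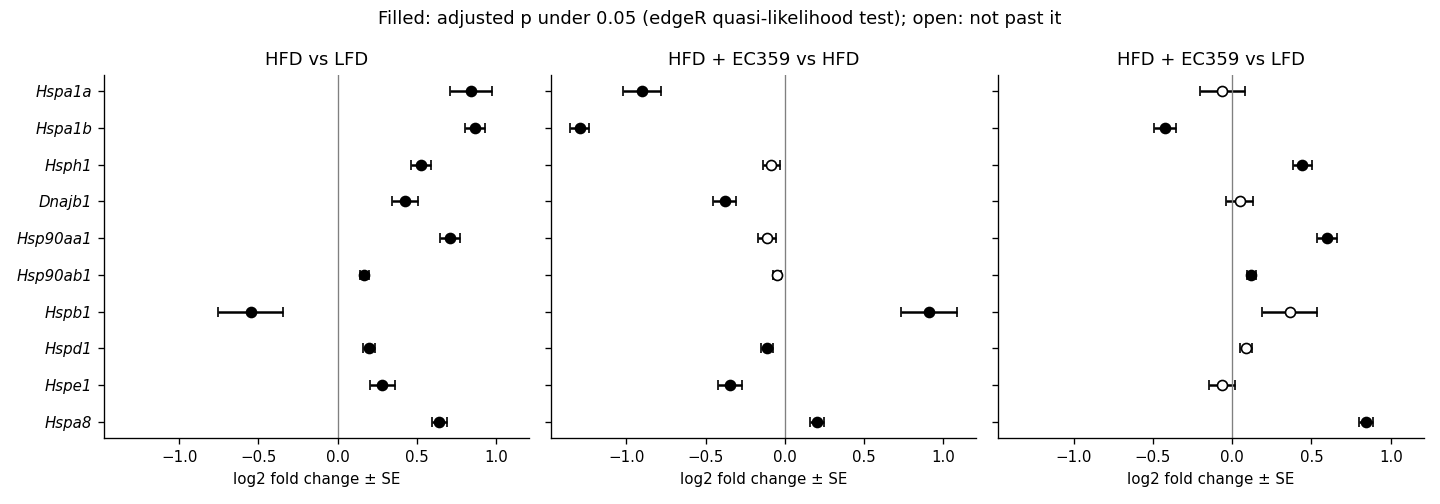
Log2 fold change of each chaperone in the 3 comparisons, with points at the fitted value and bars of 1 standard error. Filled points passed an adjusted p of 0.05. On HFD against LFD all points are filled and only Hspb1 lies left of 0, and with EC359 against HFD the points spread from -1.29 for Hspa1b to 0.91 for Hspb1.

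The inducible HSP70 genes, whose proteins are made on stress, fell furthest with EC359. Hspa1b was measured at 69.4, 59.65, and 71.0 CPM in the LFD libraries, at 118, 122, and 124 CPM in the HFD libraries, and at 51.9, 49.65, and 47.0 CPM in the HFD + EC359 libraries. All HFD libraries lay above the other 6, and all HFD + EC359 libraries below the lowest LFD library. Hspa1b rose on HFD by a log2 fold change of 0.87 ± 0.0612 (SE, adjusted p = 1.74e-13), a 1.83-fold difference. It fell with EC359 by 1.29 ± 0.0590 on the log2 scale (adjusted p = 2.89e-18), 2.45-fold below HFD, and stood below LFD as well (-0.43 ± 0.0679, adjusted p = 2.39e-06). This last call was lost after a correction for GC content and gene length (-0.15, adjusted p = 0.0562).

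Hspa1a, which encodes nearly the same protein, was counted at 50 to 154 read pairs a library. It stood at 10.2, 10.8, and 10.05 CPM on LFD, at 19.4, 19.0, and 17.45 CPM on HFD, and at 8.73, 10.8, and 10.2 CPM with EC359. The HFD libraries lay above all others, and the LFD and HFD + EC359 libraries overlapped. Hspa1a rose on HFD (log2 fold change 0.84 ± 0.131, adjusted p = 2.34e-06) and fell with EC359 (-0.90 ± 0.119, adjusted p = 3.63e-07). The difference between HFD + EC359 and LFD was -0.06 ± 0.143 (adjusted p = 0.728). The ratio of Hspa1b to Hspa1a counts was 6.45 ± 0.831 on LFD, 6.53 ± 0.517 on HFD, and 5.05 ± 0.779 with EC359. The LFD libraries overlapped both other groups in this ratio, and the HFD and HFD + EC359 libraries did not overlap. Summed as 1 locus, since they share sequence, the pair gave a log2 difference of -0.38 between HFD + EC359 and LFD (adjusted p = 2.69e-06), which follows the more abundant Hspa1b.

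Hspa8, the constitutive HSP70 of the cytosol, took another course. It was measured at 532, 655, and 641 CPM on LFD, at 931, 943, and 987 CPM on HFD, and at 1059, 1119, and 1114 CPM with EC359, so that the 3 groups followed each other without overlap. It rose on HFD (0.64 ± 0.0458, adjusted p = 2.20e-13) and was a further 1.15-fold higher with EC359 (0.20 ± 0.0440, adjusted p = 0.000643), a call that DESeq2 did not make (adjusted p = 0.0648). Against LFD the log2 fold change with EC359 was 0.85 ± 0.0455 (adjusted p = 1.51e-16). LFD replicate 1 was the lowest library, and without it the rise on HFD was 0.56 (adjusted p = 1.19e-29). An annotated locus on the same strand, LOC624853, overlaps Hspa8, and pairs over both were split by the authors' counting. Its count was 17.97% ± 1.62 of that of Hspa8 on LFD, 23.4% ± 1.19 on HFD, and 24.4% ± 0.727 with EC359, and with both loci summed, an alternative added after seeing the data, the rise on HFD was 0.71.

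The ratio of inducible to constitutive HSP70 was computed within each library after these values had been seen, and is given as a description. Hspa1a and Hspa1b together came to 11.2%, 8.06%, and 9.48% of the Hspa8 RPKM in the LFD libraries and to 11.1%, 11.2%, and 10.7% in the HFD libraries. The groups overlap through LFD replicate 1, the library that stood apart, and the other LFD libraries lay below all HFD libraries. With EC359 the ratio was 4.29%, 4.05%, and 3.85%, below all other libraries. On HFD against LFD the log2 fold changes were 0.84 for Hspa1a, 0.87 for Hspa1b, and 0.64 for Hspa8 as counted, and 1.11, 1.10, and 0.61 after GC and length correction.

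**Figure D3:**
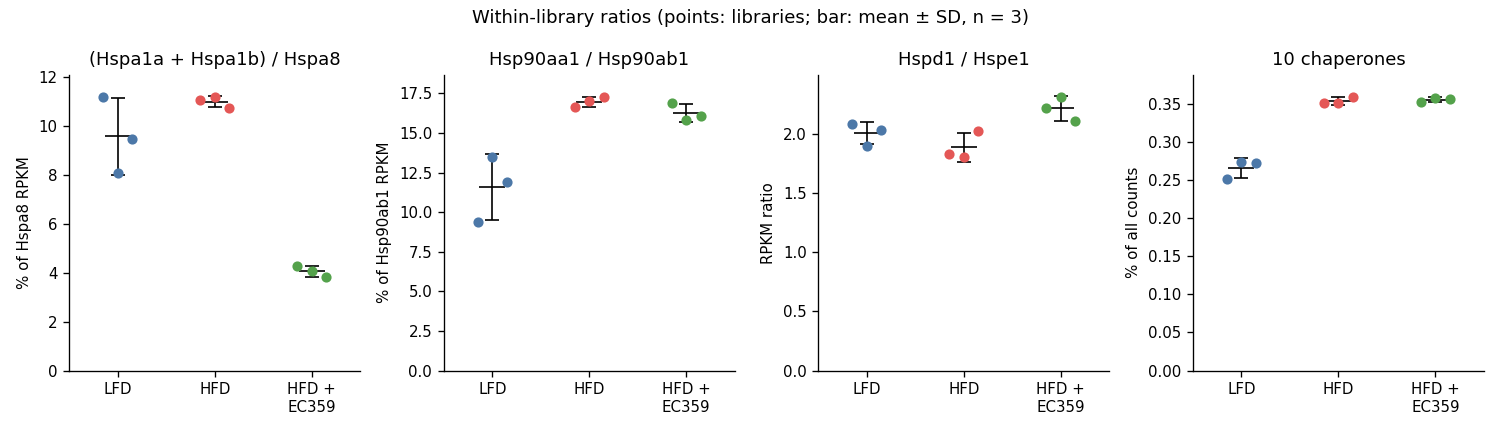
Ratios within each library, with points for libraries and bars for the mean ± SD of 3 libraries: inducible over constitutive HSP70, inducible over constitutive HSP90, Hspd1 over Hspe1, and the share of all counts taken by the 10 chaperones. The HSP70 ratio lay between 3.85% and 4.29% with EC359 and between 8.06% and 11.2% in the other 6 libraries, while the share of the 10 genes was 0.351% or more in all HFD and HFD + EC359 libraries.

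The partners of HSP70 in its cycle differed from each other in their response to EC359. Dnajb1, the J-domain protein of the HSP40 class that loads HSP70 and a known target of HSF1, stood at 45.8, 39.9, and 40.4 CPM on LFD, at 53.85, 56.7, and 58.3 CPM on HFD, and at 41.6, 47.5, and 40.6 CPM with EC359. The HFD libraries lay above all others, and the other groups overlapped. Dnajb1 rose on HFD (0.43 ± 0.0815, adjusted p = 4.86e-05) and fell with EC359 (-0.38 ± 0.0751, adjusted p = 0.000201), and the difference between HFD + EC359 and LFD was 0.05 ± 0.0828 (adjusted p = 0.653). It was the gene without a match to either motif in its printed promoter.

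Hsph1, an HSP110 that exchanges the nucleotide of HSP70 and with it can dissolve aggregates, was measured at 69.4, 64.4, and 65.6 CPM on LFD, at 92.7, 91.8, and 102 CPM on HFD, and at 84.9, 90.5, and 94.1 CPM with EC359. It rose on HFD (0.53 ± 0.0615, adjusted p = 1.22e-08). With EC359 its libraries overlapped those on HFD, at a log2 difference of -0.09 ± 0.0543 (adjusted p = 0.26), and lay above all LFD libraries (0.44 ± 0.0608, adjusted p = 1.87e-07).

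Of the HSP90 pair in the cytosol, the inducible gene Hsp90aa1 had the larger log2 fold change between the diets, and the constitutive Hsp90ab1 the smaller. Hsp90aa1 was measured at 153, 219.5, and 199.5 CPM on LFD, at 309, 312, and 320.1 CPM on HFD, and at 299, 285, and 287 CPM with EC359. No groups overlapped, and LFD replicate 1 was again the lowest library. Hsp90aa1 rose on HFD by 0.71 ± 0.0634 (adjusted p = 4.50e-11), by 0.58 without that library, and by 0.45 after GC and length correction. With EC359 it differed from HFD by -0.11 ± 0.0586 (adjusted p = 0.16), a difference that passed the threshold without LFD replicate 1 (adjusted p = 0.00401), since the spread is estimated over all groups. It stayed above LFD with EC359 (0.60 ± 0.0631, adjusted p = 9.97e-10), and by 0.25 after the same correction (adjusted p = 0.000122).

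Hsp90ab1, the most abundant of the 10 chaperones, differed little in size, and as counted only its differences from LFD were called. It stood at 1431, 1432, and 1477 CPM on LFD, at 1633, 1616, and 1628 CPM on HFD, and at 1556, 1587, and 1572 CPM with EC359, with no overlap of groups. It rose 1.12-fold on HFD (0.17 ± 0.0281, adjusted p = 6.85e-06), differed by -0.05 ± 0.0277 with EC359 from HFD (adjusted p = 0.202, and 0.0249 without LFD replicate 1), and by 0.12 ± 0.0280 from LFD (adjusted p = 0.000492). As a share of the Hsp90ab1 RPKM, Hsp90aa1 came to 11.6% ± 2.06 on LFD, 16.98% ± 0.319 on HFD, and 16.3% ± 0.564 with EC359. The LFD libraries, at 9.39% to 13.5%, lay below all others, and the other groups overlapped.

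The mitochondrial chaperonin genes, which share 1 intergenic promoter region, moved in the same direction in both comparisons of adjacent groups. Hspd1, encoding HSP60, was measured at 254, 262, and 248 CPM on LFD, at 293, 292, and 293 CPM on HFD, and at 281, 270, and 262 CPM with EC359. Hspe1, encoding the HSP10 lid of the chamber, stood at 40.3, 45.5, and 40.2 CPM on LFD, at 52.8, 53.2, and 47.7 CPM on HFD, and at 41.7, 38.5, and 40.9 CPM with EC359. The HFD libraries were the highest for either gene, and the LFD and HFD + EC359 libraries overlapped. Hspd1 rose by 0.20 ± 0.0401 on HFD (adjusted p = 0.000108) and fell by 0.11 ± 0.0383 with EC359 (adjusted p = 0.029). Hspe1 rose by 0.28 ± 0.0803 (adjusted p = 0.00373) and fell by 0.35 ± 0.0749 (adjusted p = 0.000639). The calls of Hspd1 depended on the settings: its rise on HFD was 0.04 (adjusted p = 0.42) after GC and length correction, and its fall with EC359 lost its call under 7 of 18 alternatives. These were library totals alone (-0.08, adjusted p = 0.128), thinned counts (-0.08, adjusted p = 0.245), and the fits without any 1 of HFD replicates 1, 2, or 3 or of HFD + EC359 replicates 2 or 3, at -0.11 to -0.09 on the log2 scale (adjusted p = 0.0639 to 0.157). The Hspd1 to Hspe1 ratio of RPKM was 2.003 ± 0.0952 on LFD, 1.88 ± 0.120 on HFD, and 2.21 ± 0.102 with EC359, where all libraries lay above the other 6.

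Hspb1, the small heat shock protein HSP27 (HSP25 in mice), ran against the other 9 on HFD. It was the least counted gene of the 10, at 31 to 88 read pairs a library. It stood at 8.39, 7.38, and 5.46 CPM on LFD, at 5.17, 4.06, and 5.18 CPM on HFD, and at 9.95, 8.46, and 8.80 CPM with EC359. The HFD libraries lay below all others, by a narrow margin from LFD replicate 3, and the HFD + EC359 libraries above all others. Hspb1 fell on HFD (-0.55 ± 0.203, adjusted p = 0.0237), and this call was lost without LFD replicate 1 (adjusted p = 0.116), without LFD replicate 2 (adjusted p = 0.0733), without HFD replicate 2 (adjusted p = 0.102), with DESeq2 (adjusted p = 0.0547), and after GC and length correction (-0.27, adjusted p = 0.295). It rose with EC359 from its HFD level by 0.91 ± 0.176 (adjusted p = 0.00016), a 1.88-fold difference. Against LFD the difference with EC359 was 0.36 ± 0.175 (adjusted p = 0.0751). Hspb1 is known to be strongly expressed in the epidermis. Of 10 listed markers of the epidermis, 9 were found in the count tables, none at 0 in any group. They summed to 196.5 to 206.4 CPM on LFD, 119 to 125.1 CPM on HFD, and 173.6 to 178.2 CPM with EC359, with Krt1 and Krt10 the most abundant. Of the 8 tested, 6 fell and 1 rose on HFD, against 25.8% and 26% of all tested genes. Krt77 was the 1 that rose, from a mean of 1.855 to 11.67 CPM, and Krt10 was not called. With EC359 from HFD 6 rose and none fell, against 12.7% and 13.9% of all tested genes. Their part in the Hspb1 values was not tested.

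Because base composition differed between the groups, the 10 chaperones were also compared after GC and length correction, in which a trend of log2 CPM on both was fitted in every library and taken out. Their exons span 43.2% GC in Hsp90aa1 to 60.7% in Hspb1. On HFD against LFD, the GC-rich genes Hspa1a and Hspa1b then rose more, by 1.11 and 1.10, and Dnajb1 by 0.56, whereas Hsph1 rose by 0.42 and Hspa8 by 0.61. The calls on HFD remained for 8 of the 10, all but Hspb1 and Hspd1. With EC359 against HFD, whose libraries are closer in composition, 9 of the 10 were called, Hsp90aa1 (-0.21, adjusted p = 0.000969) and Hsp90ab1 (-0.08, adjusted p = 0.0299) among them. For Hspd1, HFD + EC359 then lay below LFD (-0.13, adjusted p = 0.00408), against 0.09 ± 0.0399 (adjusted p = 0.0628) as counted.

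**Figure D4:**
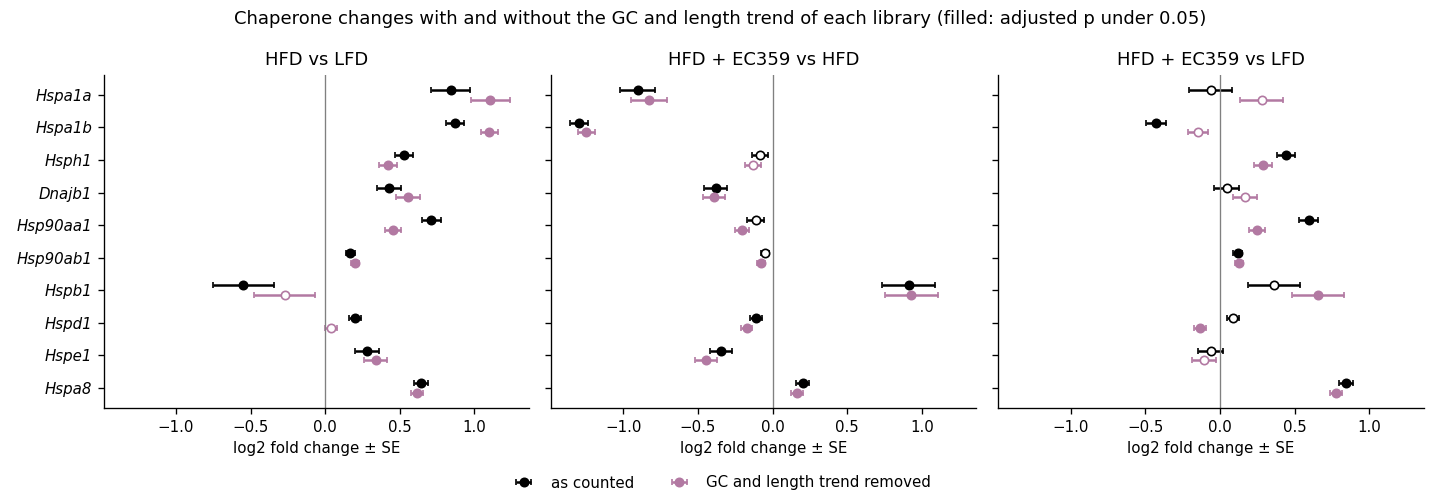
Log2 fold change with 1 standard error for the 10 chaperones, as counted (black) and after GC and length correction (purple). Filled points passed an adjusted p of 0.05. Between HFD and LFD the correction moved Hspa1b from 0.87 to 1.10 and Hsp90aa1 from 0.71 to 0.45, whereas Hspa1b with EC359 against HFD moved from -1.29 to -1.25.

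The rest of the chaperone network was described with 9 lists, of which 94 genes were tested. Over all tested genes, 26% rose and 25.8% fell on HFD against LFD, and 12.7% rose and 13.9% fell with EC359 against HFD, and each count here is to be read against these shares. Of the 94 genes, 18 rose and 26 fell on HFD, at a median log2 fold change of 0.01, as for all tested genes. With EC359 4 rose and 16 fell, at a median of -0.02. Of 3 tested regulators of the heat shock response none was called in either comparison, with log2 differences on HFD of -0.02 for Hsf1, the main heat shock factor, 0.05 for its inhibitor Hsbp1, and 0.15 for Hsf2. On HFD + EC359 against LFD, 1 of the 3, Hsf2, was higher (0.31, adjusted p = 0.0380), where 29.2% of all tested genes were.

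Among 10 other HSP70 and HSP110 genes, 2 rose and 3 fell on HFD, at a median of 0.02, and 1 rose and 2 fell with EC359. Hspa5, the HSP70 of the endoplasmic reticulum, differed by -0.02 on HFD and by -0.03 with EC359, and Hspa4, an HSP110, by 0.03 and -0.05, none of them called. Hspa9, the HSP70 of mitochondria, fell by 0.23 on HFD (adjusted p = 1.85e-05). Among 23 other J-domain proteins, 8 rose and 2 fell on HFD, at a median of 0.07, and 3 fell with EC359. The most abundant, Dnajc5 of synaptic and secretory vesicles, fell by 0.16 on HFD (adjusted p = 0.000985) and differed by -0.08 with EC359 (adjusted p = 0.13). Dnajc10, a disulfide reductase of the endoplasmic reticulum, rose by 0.21 on HFD (adjusted p = 0.000839) and differed by 0.09 with EC359 (adjusted p = 0.194). Dnaja1, a cytosolic partner of HSP70, rose by 0.37 on HFD (adjusted p = 3.70e-06) and fell by 0.17 with EC359 (adjusted p = 0.0182), so that the 3 abundant J-domain genes differed in direction. Dnajb9, a J-domain protein of the endoplasmic reticulum, rose by 1.18 on HFD and was the gene of the network past the stricter threshold there.

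Of 10 nucleotide exchange factors 4 fell and none rose on HFD, at a median of -0.07, and 1 fell with EC359. Bag6 fell by 0.15 on HFD (adjusted p = 0.00147). Bag1 differed by 0.07 on HFD and -0.10 with EC359, and Bag3, a target of HSF1 that links HSP70 to small HSPs, by 0.09 and -0.10, none of them called. Hspbp1 fell by 0.76 on HFD and by a further 0.30 with EC359, and HFD + EC359 lay past the stricter threshold below LFD, at -1.07.

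Of 19 co-chaperones of HSP90, 3 rose and 6 fell on HFD, at a median of -0.01, and 1 rose and 5 fell with EC359. Cdc37, which brings kinases to HSP90, fell by 0.21 on HFD and by 0.12 with EC359, Fkbp8 fell by 0.45 and 0.18, and Fkbp5 fell by 0.25 on HFD and rose by 0.20 with EC359. Of the HSP90 genes of organelles, Hsp90b1 of the endoplasmic reticulum rose by 0.29 on HFD and fell by 0.16 with EC359, and the mitochondrial Trap1 was not called, at 0.09 and 0.03.

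Of 5 other small HSPs, 1 rose and 1 fell on HFD, at a median of 0.12, and 1 rose with EC359. Hspb8 differed by -0.14 on HFD and 0.02 with EC359 and Hspb6 by 0.12 and -0.03, none of them called, and Cryab rose by 0.55 on HFD. Hspb7 fell by 0.86 on HFD and rose by 1.05 with EC359, past the stricter threshold, at a mean of 3.07 CPM. Of 13 genes of the cytosolic chaperonin TRiC and its partner prefoldin, 2 rose and 5 fell on HFD, at a median of -0.03, and 3 fell with EC359. Tcp1 fell by 0.20 and Cct2 by 0.10 on HFD, and Cct5 was not called, at 0.03. Of 9 genes of mitochondrial protein quality, 1 rose and 5 fell on HFD, at a median of -0.18, and 1 rose and 1 fell with EC359. On HFD, the proteases Lonp1 and Spg7 fell by 0.18 each, and Yme1l1 rose by 0.53.

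**Figure D5:**
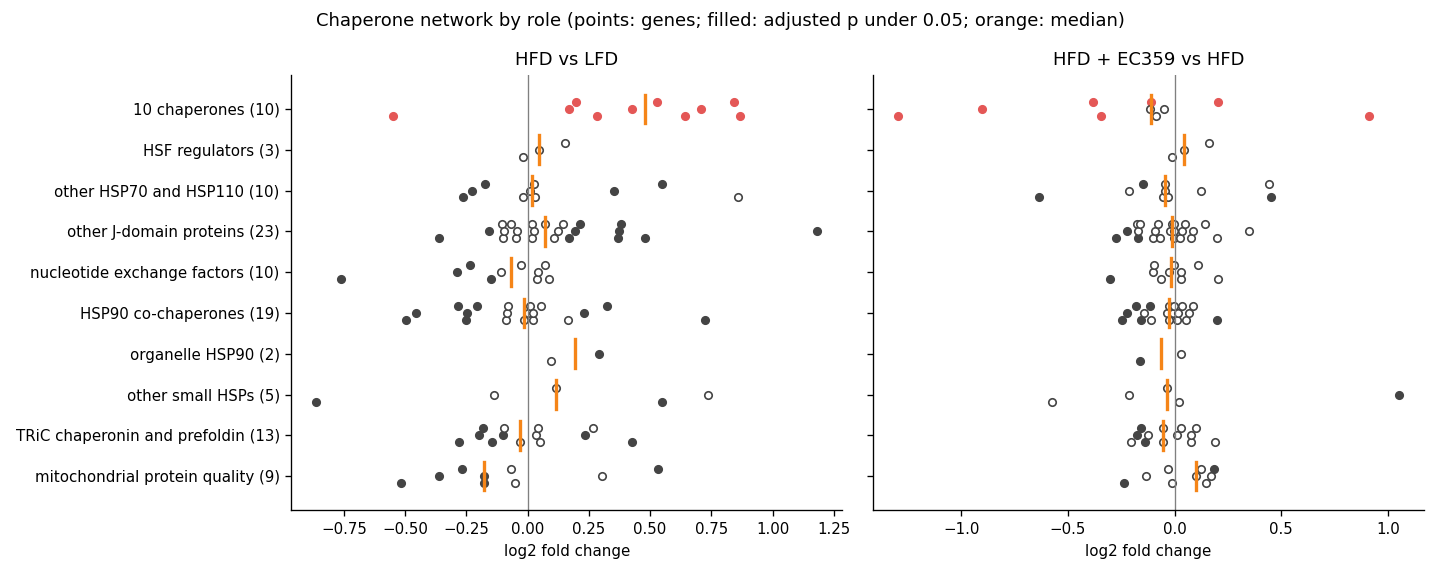
Log2 fold changes of the 10 chaperones (red) and of 94 tested genes of their network by role, on HFD against LFD and on HFD + EC359 against HFD. Each point is a gene, filled where the adjusted p was under 0.05, and orange marks are medians. On HFD the median of the 10 chaperones was 0.48, and that of all 94 other genes together 0.01. The 10 genes and the lists were chosen with earlier results of these data known.

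For each chaperone, the gene of the other 13365 whose log2 levels over the 9 libraries lay closest was found, by the root mean square difference after centring each gene. Hspa1a was closest to Fkbp10 (0.104), a collagen-folding protein, and Hspa1b to Fbn1 (0.104), which encodes fibrillin. Hsp90aa1 was closest to Kdelr3 (0.0561), Hspa8 to Nbeal1 (0.0348), Hsph1 to 2700060E02Rik (0.0506), and Dnajb1 to Cldn5 (0.0573), a tight junction protein of endothelium. Hsp90ab1 was closest to the glycolytic gene Gpi1 (0.0183), Hspd1 to Lpgat1 (0.0315), Hspe1 to Tnfrsf9 (0.0660), and Hspb1 to Pdk4 (0.162), a kinase of the pyruvate dehydrogenase complex. No chaperone had another of the 10 as its closest gene. Among the 13365 genes, the nearest other member of the 10 ranked from 40 for Hspa1b and 42 for Hspd1 to 1580 for Hsph1 and 5451 for Hspb1. The nearest pair among them was Hspd1 and Hsp90ab1, at 0.0481, and Hspa1a and Hspa1b were 0.229 apart. These likenesses describe 9 libraries in 3 groups and depend on the level of the genes, since lower counts add noise.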

How the data were processed

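RNA-seq counts of 9 libraries were analysed, 3 per group by the labels. The authors deposited expected counts, obtained with featureCounts 1.5.0-p1 from HISAT2 2.1.0 alignments to mm9 and not normalized. The minimum mapping quality was 2, and only pairs that passed it were split into fractions where they lay over several alignments or genes. The paper's methods name TopHat2 and HTSeq instead. Between 1.19% and 3.55% of a library's genes held fractions, and values were rounded to whole numbers. Counting error alone limits a count of 0 to 3 counts.

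In R 4.3.3, genes were filtered with filterByExpr and scaled with TMM factors in edgeR 4.0.16, with RPKM over merged exon length. One quasi-likelihood model held the 3 groups, with a biological coefficient of variation of 3.63%. Alternatives used DESeq2 1.42.0, RLE factors, library totals, other filters, 6 libraries alone, a replicate block, thinned counts, an offset from natural splines of GC content and gene length (5 degrees of freedom each), summed loci, and each library left out. The steps were tested on simulated data. Labels name no batch. The study's threshold was a second call rule.

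The 10 genes and all lists were chosen with earlier results of these data known. Named genes are the 10 chaperones, the 3 most abundant tested genes of each network list and those past the stricter threshold, and the closest gene to each chaperone.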

Additional observations from a re-analysis of the deposited data

How the results depend on the processing

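The number of the 10 chaperones called stayed within 8 to 10 on HFD against LFD, 6 to 9 on HFD + EC359 against HFD, and 5 to 7 on HFD + EC359 against LFD under every alternative but the stricter threshold, under which it was 0, 1, and 0, with 763, 459, and 680 genes called in all. With each library left out in turn, 9 to 10, 6 to 9, and 5 to 6 chaperones and 6237 to 6854, 2733 to 4232, and 7088 to 7736 genes were called. Libraries of the same number did not deviate together (correlations of -0.0297 to 0.0170), so the numbers were not taken as pairs. With a replicate block, 10, 7, and 5 chaperones and 6944, 3550, and 7773 genes were called.

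No log2 fold change of a chaperone turned its direction in the first 2 comparisons. Those that did on HFD + EC359 against LFD were not called as counted: Hspa1a at 0.012 with library totals, 0.28 after GC and length correction, and -0.13 to 0.015 with each library left out (above 0 without HFD + EC359 replicate 1), Dnajb1 at -0.053 with thinned counts and -0.027 to 0.11 with each library left out (-0.00034 without LFD replicate 2 and -0.027 without HFD + EC359 replicate 2), Hspe1 at 0.012 with library totals, and Hspd1 at -0.13 after GC and length correction, where it was called. Hspd1 was called in the opposite direction with library totals (0.16, adjusted p = 0.000818) and with at least 10 counts in every library (0.09, adjusted p = 0.0438), so that its called direction depended on the setting. In that comparison Hspb1 was called with library totals (adjusted p = 0.0316), without LFD replicate 1 (adjusted p = 0.0348), and after GC and length correction (adjusted p = 0.00172). The cause was not tested. Low counts limit Hspb1 and Hspa1a most, and shared sequence limits the level of every gene but Hsph1, Dnajb1, and most of Hsp90ab1.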
